A study of Mus musculus with 16 samples.

Results

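Embryos whose dams had received both the insecticide alpha-cypermethrin and restraint stress were compared with embryos whose dams had received neither, over all genes of the count table. The comparison was chosen by the exposure labels alone and used 8 of the 16 libraries, 4 with both exposures and 4 with neither, while the other 8 (4 with cypermethrin alone and 4 with stress alone) entered the same fit. RNA had been sequenced from GAD67-GFP-positive cells picked by laser capture from the cortical plate, at the leading edge of migration, in 10 µm fixed brain sections, with about 1000 cells per embryo drawn from 10 sections. Every embryo was a GAD67-GFP+/- animal of embryonic day 14.5 that was recorded as male, carried by a CD1 dam, and was the only one used from its litter. With both exposures, dams were gavaged with 10 mg/kg alpha-cypermethrin on gestational days 11 to 14 and restrained under bright light in 3 sessions of 45 min on days 12 and 13, with a last restraint on day 14 that ended 15 min before euthanasia. With neither exposure, dams were gavaged with corn oil on the same days and were not restrained. All groups therefore share the gavage itself, the last of which came 90 min before euthanasia, and the heterozygous GFP reporter. Cells cut from a section can carry RNA of their neighbours, and in such bulk samples fewer cells of a type cannot be told apart from less RNA per cell.

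GABAergic interneurons of the cortex are born in the ventral forebrain and migrate tangentially into the cortical plate, where they later provide inhibition. GAD67, the product of Gad1, makes GABA and so marks these cells. Cypermethrin is a pyrethroid, a class of insecticides that keep voltage-gated sodium channels open, and restraint is a standard stressor that raises maternal glucocorticoids.

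Overall measures of the 8 libraries overlapped between the groups. Total counts were 4011514 ± 315773 with both exposures and 3538039 ± 350695 with neither (SD, n = 4 each; exact two-sided permutation test, p = 0.114, where the smallest p that 4 against 4 allows is 0.0286). Across genes, the median correlation of log2 levels was 0.883 for the 6 pairs of libraries within the exposed group, 0.880 for the 6 pairs within the unexposed group and 0.883 for the 16 pairs between the groups. The library descriptions carry a code that the labels do not explain, and it divides each of the 2 compared groups into 2 and 2: their replicates 1 and 2 carry the first code and replicates 3 and 4 the second. Differences computed within the codes are therefore given beside the pooled ones. The library labelled vehicle stressed replicate 1, which enters the fit but not the comparison, goes against its recorded sex, with 4528 CPM (counts scaled to library size) of Xist, a transcript of the inactive X chromosome, where the 8 compared libraries had at most 2.31 CPM.

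No gene was called different between both exposures and neither. Of 13224 genes with enough counts to test, 0 (0%) passed an adjusted p of 0.05 in edgeR's quasi-likelihood test, and the adjusted p was 1 for each of them. DESeq2 and limma voom also called 0 genes. At an unadjusted p under 0.05, edgeR had 197 genes (1.49% of those tested), 104 higher with both exposures (0.786%) and 93 lower (0.703%), DESeq2 had 289 and limma voom 248. In this and each later comparison, a share of about 0.05 of genes would fall under this threshold with no true difference. The 197 are therefore no excess. Their share lies well below 0.05, so that level is no exact yardstick for this fit. Its standard errors, p-values and intervals rest on a spread shared by all 16 libraries, which can be wider than that of the 8 compared ones. The 197 became 496 of 12387 tested (4.00%) when only the 8 compared libraries were fitted, 317 when the library labelled vehicle stressed replicate 1 was left out, and 110 when replicate 1 with both exposures was. In 347 genes (2.62%) the 4 CPM values of one group lay wholly above or below those of the other, 168 higher (1.27%) and 179 lower (1.35%), and 71 of these were also among the 197. With no true difference, a share of about 0.0286 of genes would separate in this way. The 347 are therefore no excess either, and groups that do not overlap are given below as a description only.

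Fitted differences are given on the log2 scale, where 1 is a 2-fold change, and relative to the bulk of genes, since the scaling of the libraries (TMM) itself centres them near 0. Their median was 0.00, and 6652 genes (50.3%) were fitted higher with both exposures against 6572 lower. The middle 50% of genes lay between -0.29 and 0.28, and 90% lay between -0.997 and 0.97. How small a difference the data could limit depended on the level of the gene. Among the 3306 genes with the highest levels (above 67.7 CPM on average), the median standard error was 0.27, and for 2871 of them (86.8%) the 95% interval of the difference stayed within 2-fold in both directions. Among the 3306 lowest (under 9.66 CPM), the median standard error was 1.16 and the interval stayed within 2-fold for 0 genes. Over all tested genes it did so for 3775 (28.5%).

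**Figure D1:**
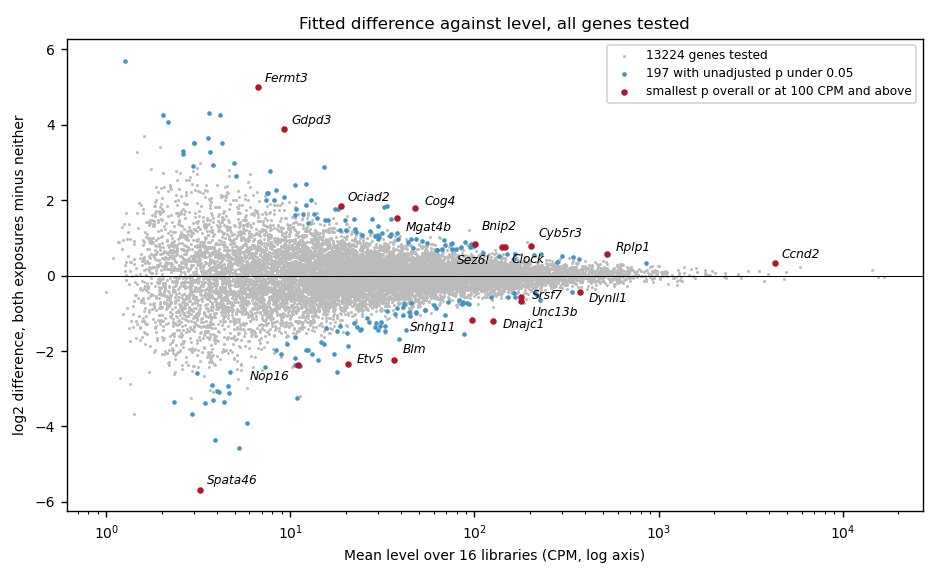
Fitted log2 difference between both exposures and neither (y axis) against the mean level in CPM over 16 libraries (x axis, log scale), 1 point per tested gene, with the 197 genes at an unadjusted p under 0.05 in blue and those named for the smallest p in red. The cloud lies around 0, where the scaling centres it, and widens to the left, with a median standard error of 1.16 in the lowest 25% of genes and 0.27 in the highest 25%; 0 of 13224 genes passed an adjusted p of 0.05.

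Genes at an unadjusted p under 0.05 were mostly highest in libraries of 1 code. Of the 104 that were higher with both exposures, 67 were highest in replicate 1 of that group and 33 in replicate 2, so that 100 (96.2%) peaked in a library of the first code. The share over all 6652 genes fitted higher was 76.8%. Of the 93 that were lower, 52 were highest in replicate 1 with neither exposure and 26 in replicate 2, together 78 (83.9%), where the share over all 6572 genes fitted lower was 68.0%. The compared libraries of the first code had 13605 to 14382 genes with a count, those of the second 15484 to 16536. Replicates 1 and 2 also differed more from each other than replicates 3 and 4 did. The chi-square of their counts per gene was 33.4 with both exposures and 24.0 with neither, against 5.98 and 9.65. What part the code or these features have in the differences was not tested by these shares. A test of whether the difference itself varied between the codes, chosen after seeing the data, called 0 of 13526 genes in edgeR, with 816 (6.03%) at an unadjusted p under 0.05 and a smallest adjusted p of 0.0759.

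The 12 genes with the smallest unadjusted p are described by what they do, since none was called. Picking genes for a small p favours groups that do not overlap and differences that hold when a library is left out. Neither is added support for genes named in this way. Values in replicates 1 to 4 of each group are CPM unless counts are named, differences are fitted log2 values with their standard error, and a pair of differences within the codes gives the first code and then the second. Positions are those of GENCODE on mm10, and all 12 are annotated as protein coding. The strand setting of the counting is not stated, so where another gene of the table overlaps, its reads cannot be told apart.

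Dnajc1 and Nop16 act in the making or folding of proteins, and in both the groups of libraries did not overlap. Dnajc1 (chromosome 2, 18195654 to 18392830), a membrane-anchored co-chaperone of the endoplasmic reticulum whose locus overlaps Mllt10, measured 148, 146, 101 and 183 CPM with neither exposure and 51.7, 53.1, 78.6 and 66.5 CPM with both. All 4 exposed libraries lay below all 4 unexposed ones, and the difference was -1.21 ± 0.35 (95% interval -1.93 to -0.49; edgeR unadjusted p = 0.00193), or -1.50 within the first code and -0.97 within the second. Leaving out each library in turn moved it between -1.35 and -1.07. Nop16 (chromosome 13, 54584185 to 54590090), a nucleolar protein of 60S ribosome assembly, measured 31.3, 13.9, 13.6 and 12.6 CPM with neither exposure and 1.73, 2.54, 6.4 and 2.99 CPM with both. Its difference was -2.37 ± 0.75 (unadjusted p = 0.00403), -3.38 in the first code and -1.47 in the second.

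Blm and Etv5 had negative differences that rested on 1 or 2 unexposed libraries. Blm (chromosome 7, 80454733 to 80535119), the RecQ DNA helicase that resolves recombination intermediates, had the smallest p of all genes (edgeR unadjusted p = 0.00081). It measured 31.6, 208, 25 and 20.8 CPM with neither exposure and 12.1, 10.1, 23.6 and 14.5 CPM with both. Only replicate 2 of the unexposed group was far above the rest, and the groups overlapped. The difference of -2.24 ± 0.59 was -3.44 within the first code and -0.26 within the second, and became -0.77 without that replicate. Etv5 (chromosome 16, 22381309 to 22439719), a transcription factor induced by fibroblast growth factor signalling, measured 128, 40.1, 17.9 and 9.78 CPM with neither exposure and 1.44, 14.5, 13.9 and 7.97 CPM with both. Its difference of -2.36 ± 0.76 was -3.37 in the first code and -0.34 in the second, and -1.25 without replicate 1 of the unexposed group.

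Snhg11 and Spata46 were the other genes of the 12 with a negative difference. Snhg11 (chromosome 2, 158375638 to 158386145), known as a host gene of small nucleolar RNAs, measured 204, 80.9, 90.1 and 113 CPM with neither exposure and 32.4, 45.4, 92.7 and 44.1 CPM with both, a difference of -1.18 ± 0.40 (-1.88 and -0.57 within the codes). One exposed library, replicate 3, lay inside the unexposed range. Spata46 (chromosome 1, 170308803 to 170312125), a gene named for spermatogenesis that overlaps Nos1ap, had 42, 14, 2 and 4 counts in the unexposed libraries and 0, 0, 1 and 0 in the exposed ones. With 1 count in an entire group its fitted difference has little meaning and is not given as a fold.

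Sez6l, Mgat4b, Ociad2 and Cog4 had positive differences. Sez6l (chromosome 5, 112419151 to 112577185), a transmembrane protein of neurons related to the seizure-associated Sez6 whose locus overlaps Gm6588, measured 122, 115, 95.4 and 98.8 CPM with neither exposure and 231, 201, 124 and 172 CPM with both. The groups did not overlap, and the difference was 0.76 ± 0.24 (unadjusted p = 0.00429), 0.86 in the first code and 0.60 in the second. Ociad2 (chromosome 5, 73322199 to 73341028), which encodes an OCIA domain protein, measured 4.71, 2.14, 10.9 and 9.27 CPM against 26.6, 18.7, 26.1 and 26.7 CPM. Every exposed library was above every unexposed one, with a difference of 1.85 ± 0.62 (2.71 and 1.38 within the codes). Mgat4b (chromosome 11, 50210890 to 50235103), a glycosyltransferase of N-glycan branching that overlaps Mir6919, measured 11.8, 32.9, 27 and 18 CPM against 86.1, 117, 24.1 and 34.1 CPM, a difference of 1.54 ± 0.50. The 2 high libraries both carry the first code, where the difference was 2.17, against 0.36 in the second. Cog4 (chromosome 8, 110846600 to 110882227), a subunit of the Golgi tethering complex that overlaps Sf3b3, measured 11.4, 55.6, 27.8 and 28.3 CPM with neither exposure and 308, 60.2, 23.4 and 35.9 CPM with both, so that 1 exposed library was far above the rest. Its difference of 1.79 ± 0.60 was 0.37 without that library (replicate 1), and 2.43 and 0.07 within the codes.

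Gdpd3 and Fermt3 had the largest positive differences of the 12 at very low levels. Gdpd3 (chromosome 7, 126766334 to 126775649), a lysophospholipase D, measured 0, 0.801, 3.53 and 2.83 CPM with neither exposure and 10.4, 89.5, 5.52 and 3.99 CPM with both. The groups did not overlap, but the difference of 3.89 ± 1.20 was 1.85 without replicate 2 of the exposed group, and 6.74 and 0.58 within the codes. Fermt3 (chromosome 19, 6998958 to 7019469), the kindlin of blood cells that activates integrins and that overlaps Trpt1, had 0, 0, 6 and 1 counts in the unexposed libraries and 196, 17, 7 and 3 in the exposed ones. Its difference of 4.99 ± 1.68 was 2.10 without replicate 1 of the exposed group, which held most of these counts, and 6.94 without replicate 3 of the unexposed group. Within the codes no difference is given, since the unexposed libraries of the first code had 0 counts and the gene had too few in the second to be tested.

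**Figure D2:**
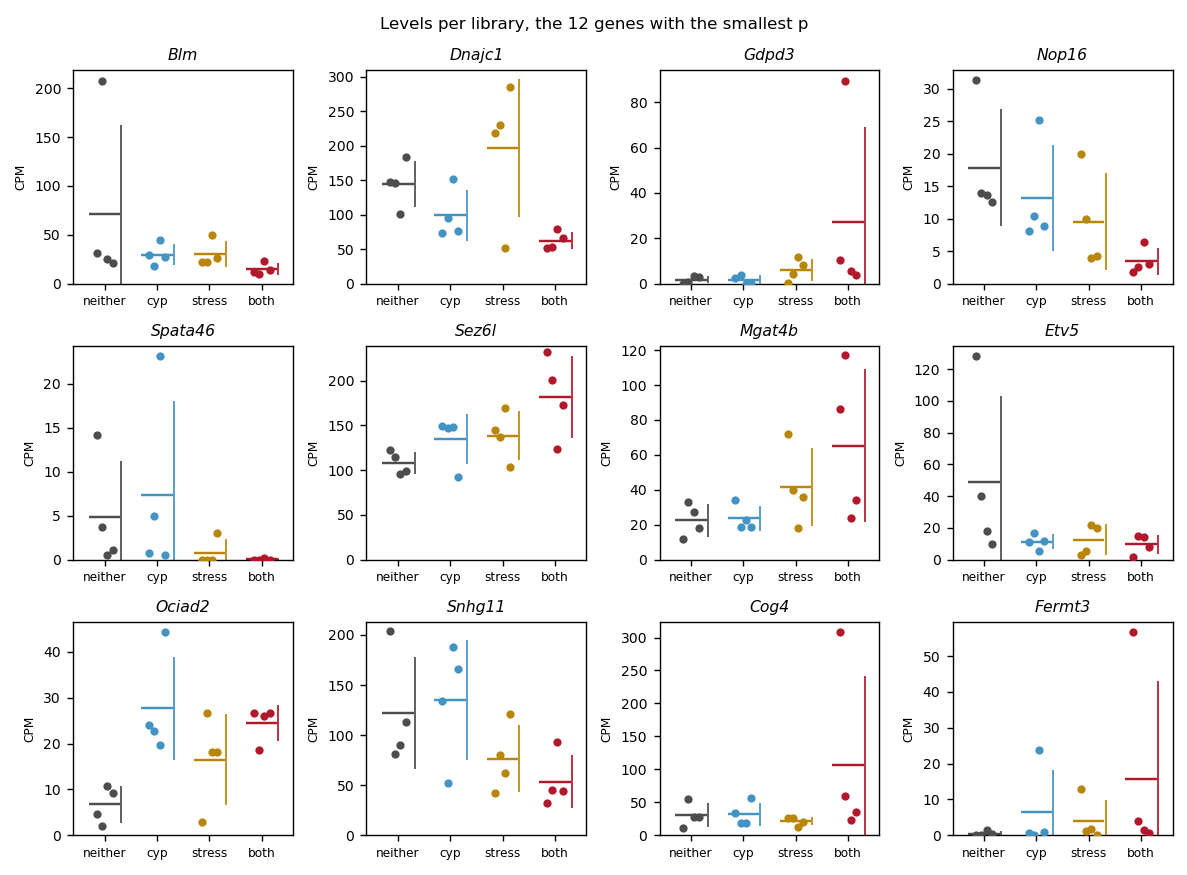
CPM (y axes, from 0) of the 12 genes with the smallest unadjusted p, with 1 point per library, in the 4 groups of 4: neither exposure, cypermethrin alone (cyp), stress alone and both. Horizontal lines are group means and vertical lines their SD. Between neither and both, Dnajc1, Nop16, Spata46, Sez6l, Ociad2 and Gdpd3 have values that do not overlap, while Blm (208 CPM in replicate 2 with neither exposure) and Cog4 (308 CPM in replicate 1 with both) each have 1 library far from the others.

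Abundant genes differed by less. Of 2277 genes with a mean of at least 100 CPM, the 10 with the smallest unadjusted p included Dnajc1 and Sez6l, and the other 8 had differences between -0.67 and 0.83. Unc13b, a priming factor of synaptic vesicles, measured 302, 193, 185 and 219.8 CPM with neither exposure and 138, 102, 157 and 168 CPM with both. The groups did not overlap and the difference was -0.67 ± 0.24 (edgeR unadjusted p = 0.00891), -1.05 in the first code and -0.32 in the second. Dynll1, a dynein light chain, measured 389, 493, 387 and 424 CPM against 277, 348, 309.8 and 326 CPM. Every exposed library was below every unexposed one, with a difference of -0.42 ± 0.18 that was -0.51 and -0.35 within the codes. Srsf7, a splicing factor, measured 191, 300.2, 173 and 229 CPM against 112, 142, 191 and 160.0 CPM, a difference of -0.56 ± 0.22 (-0.96 and -0.20 within the codes) with overlapping groups.

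The other 5 of these abundant genes were fitted higher with both exposures. Cyb5r3, a reductase of cytochrome b5, measured 108, 131, 153 and 134 CPM with neither exposure and 251, 283, 180.4 and 191 CPM with both. Its groups did not overlap, and the difference of 0.78 ± 0.29 was 1.15 and 0.37 within the codes. Bnip2, a scaffold protein with a BCH domain, measured 58.9, 104, 63.3 and 89.6 CPM against 206, 115, 109.5 and 133 CPM. Its groups did not overlap either, with a difference of 0.83 ± 0.30 (0.96 and 0.66 within the codes). Ccnd2, the D-type cyclin of dividing neural progenitors, measured 2995, 3782, 3472 and 3671 CPM against 4669.9, 4697, 3832 and 4223 CPM. All 4 exposed libraries were above all 4 unexposed ones by a difference of 0.32 ± 0.14 (unadjusted p = 0.0247), which was 0.46 and 0.17 within the codes. Its locus overlaps 9330179D12Rik.

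Clock and Rplp1 completed this set, and their groups overlapped. Clock, a transcription factor of the circadian clock, measured 99.7, 95.6, 107 and 156 CPM with neither exposure and 300.5, 144, 124 and 204 CPM with both. Its difference of 0.75 ± 0.28 was 0.46 without replicate 1 of the exposed group, the highest library, and 1.17 and 0.32 within the codes. Rplp1, a protein of the large ribosomal subunit, measured 460.2, 473, 522 and 298 CPM against 864, 717, 382 and 628 CPM, a difference of 0.56 ± 0.23 (0.75 and 0.30 within the codes).

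**Figure D3:**
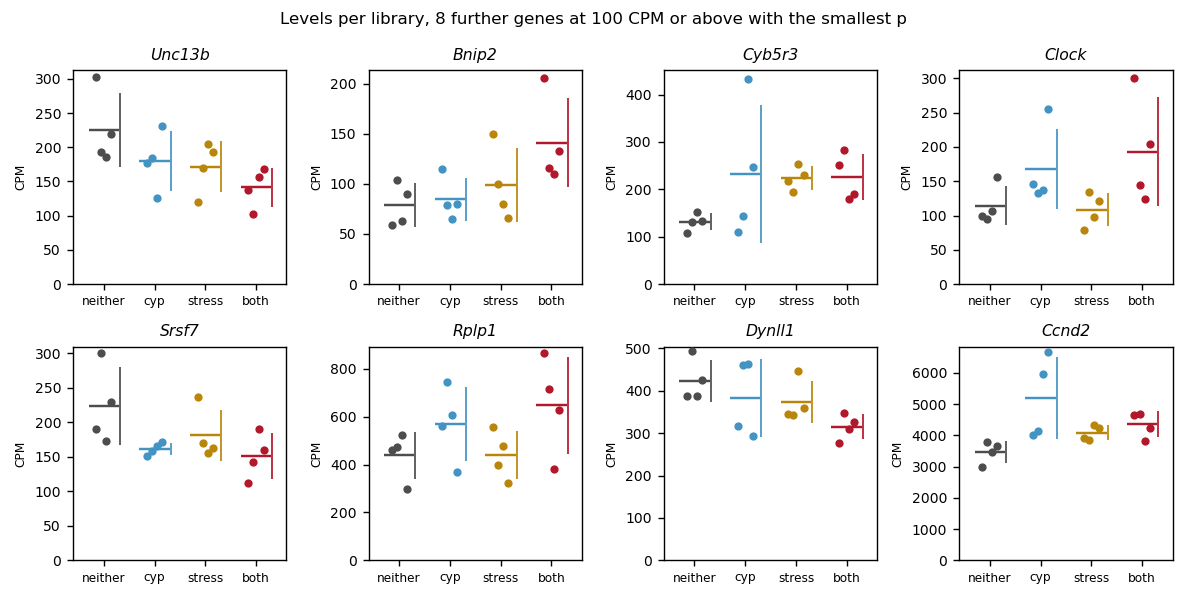
CPM (y axes, from 0) of the 8 further abundant genes, with 1 point per library in each of the 4 groups, horizontal lines for means and vertical lines for SD. Between neither exposure and both, Unc13b, Dynll1, Cyb5r3, Bnip2 and Ccnd2 show groups that do not overlap, at differences between -0.67 and 0.83 on the log2 scale.

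A set of 17 genes for interneuron identity, migration, sodium channels and hormone or toxic stress responses was followed whatever its values. Fos, an immediate early gene, had only 55 counts over 16 libraries and could not be tested. Of the 16 others, 11 were fitted higher and 5 lower, 1 (Ccnd2, above) had an unadjusted p under 0.05, and for 13 the 95% interval stayed within 2-fold in both directions.

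Transcripts that define the captured cells were present in every library of both groups. Gad2, the second GABA-synthesising enzyme, whose locus overlaps Mir3967, measured 203, 265, 198 and 249 CPM with neither exposure and 272, 212, 257 and 341 CPM with both. The groups overlapped, with a difference of 0.24 ± 0.25 (95% interval -0.27 to 0.75). Gad1, whose locus overlaps Gad1os, measured 48.5, 42.7, 62.1 and 62.3 CPM against 46.5, 58.8, 72.9 and 75 CPM, a difference of 0.23 ± 0.36. Lhx6, the transcription factor of interneurons from the medial ganglionic eminence, measured 296, 335, 195 and 302 CPM against 347, 276, 202 and 325 CPM, with a difference of 0.03 ± 0.21. Sox6, which acts downstream of Lhx6, had a difference of 0.23 ± 0.21, and Dlx1, a homeobox factor of GABAergic progenitors that overlaps Dlx1as, had -0.16 ± 0.33.

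Genes of migration followed in the same set had 95% intervals that included 0. Dcx, the microtubule-binding protein of migrating neurons, measured 3411, 3919, 3413 and 3953 CPM with neither exposure and 3455, 3792, 3577 and 4212 CPM with both, a difference of 0.03 ± 0.13 whose 95% interval ran from -0.23 to 0.29. Erbb4, the neuregulin receptor, had 0.01 ± 0.18, Cxcr4, the chemokine receptor that keeps interneurons in their migratory streams, had 0.03 ± 0.36 (-0.53 and 0.56 within the codes), and Cnr1, the cannabinoid receptor, had 0.17 ± 0.15. Over the 34 tested genes of migration and guidance, 23 were fitted higher and 11 lower around a median of 0.06, with differences from -2.01 to 0.60. The 95% interval stayed within 2-fold for 24 of them, and 0 had an unadjusted p under 0.05. The smallest p was that of Dcc, the netrin receptor, at 785, 1008, 986 and 968 CPM against 1436, 895, 1019 and 1129 CPM (0.26 ± 0.16, and 0.11 without replicate 1 of the exposed group).

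Sodium channel genes, which encode the targets of pyrethroids, had 0 of 7 tested members at an unadjusted p under 0.05. Fits were lower for 6 and higher for 1 with a median of -0.08, and under upper-quartile scaling 5 were lower and 2 higher. Scn3a, the main embryonic alpha subunit, measured 280.5, 347, 219 and 276 CPM with neither exposure and 184, 209, 269.8 and 249.7 CPM with both. Its difference of -0.30 ± 0.26 (95% interval -0.83 to 0.23) was -0.68 in the first code and 0.07 in the second. Scn2a, a further alpha subunit, had -0.02 ± 0.26. Voltage-gated calcium channel genes numbered 11 lower and 4 higher of 15, with a median of -0.12, and potassium channel genes 12 lower and 11 higher of 23, with a median of -0.00.

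**Figure D4:**
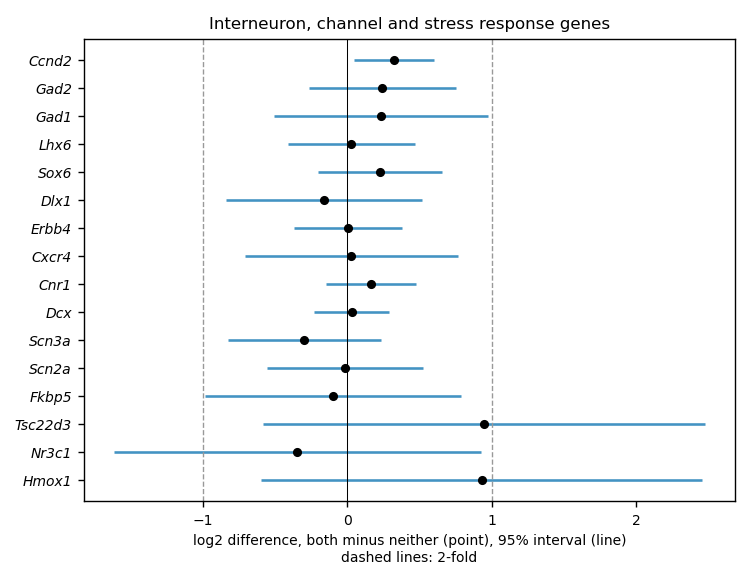
Fitted log2 differences (x axis) between both exposures and neither for the 16 tested genes of the followed set, with bars giving 95% intervals. All intervals but that of Ccnd2 include 0, and 13 of the 16 stay between -1 and 1.

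Transmitter receptor genes were more often fitted lower than higher. Of 21 tested glutamate receptor genes and partners, 16 were fitted lower and 5 higher with a median of -0.23, where over all tested genes 50.3% were higher with a median of 0.00. Only Cnih3, which encodes a cornichon protein that binds AMPA receptors, had an unadjusted p under 0.05 (0.0431) or groups that did not overlap. Over all tested genes these shares were 1.49% and 2.62%. Cnih3 measured 116, 74.3, 68.9 and 56.4 CPM with neither exposure and 55.8, 39.9, 45 and 45.9 CPM with both, a difference of -0.76 ± 0.36 that was further from 0 in the first code than in the second (-0.46). Of 15 GABA and glycine receptor genes, 9 were lower and 6 higher with a median of -0.20, and again 1 had an unadjusted p under 0.05 and groups that did not overlap. This was Glrb, the beta subunit that anchors glycine receptors, at 71, 54.2, 52 and 48.1 CPM against 37.3, 17.3, 33.6 and 45.1 CPM (-0.76 ± 0.37; -1.21 and -0.35 within the codes). Synaptic vesicle genes stood at 14 lower and 11 higher of 25 with a median of -0.04.

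The gene lists for hormone and toxic stress held no member at an unadjusted p under 0.05. Of 20 tested glucocorticoid response genes, 12 were fitted lower and 8 higher around a median of -0.06. Fkbp5, a co-chaperone of the glucocorticoid receptor that the hormone induces, measured 38.4, 16.8, 38.4 and 46.6 CPM with neither exposure and 19.1, 37.1, 36.4 and 38.1 CPM with both (-0.10 ± 0.43). Tsc22d3, a hormone-induced leucine zipper protein, measured 2.02, 14.2, 5.8 and 5.4 CPM against 27.7, 9.69, 8.83 and 6.98 CPM (0.95 ± 0.75, and 0.31 without replicate 1 of the exposed group). Nr3c1, the receptor itself, had -0.34 ± 0.62. The mineralocorticoid receptor gene Nr3c2 was the 1 listed gene whose groups did not overlap (beside 2.62% of all tested genes). It measured 4.38 to 17.9 CPM with neither exposure and 2.77 to 4.2 CPM with both (-1.22 ± 1.20, edgeR unadjusted p = 0.321).

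Immediate early genes and detoxifying genes were split in both directions. Of 17 immediate early genes, 9 were fitted higher and 8 lower. Their fitted values had a median of 0.28, but the plain differences of mean log2 CPM had a median of 0.01. Klf2, a Krüppel-like transcription factor, measured 1.68, 0, 3.03 and 4.12 CPM with neither exposure and 4.91, 10.6, 6.4 and 7.73 CPM with both, so that the groups did not overlap (1.73 ± 1.01, unadjusted p = 0.0998). Of 13 tested genes of xenobiotic metabolism, 8 were higher and 5 lower with a median of 0.08. Gstp1, a glutathione transferase, had the smallest p among them at -1.06 ± 0.59, which was -0.43 without replicate 1 of the unexposed group. Gstm5, another glutathione transferase, was the 1 member whose groups did not overlap (beside 2.62% of all tested genes). It measured 8.42, 12.3, 11.1 and 9.52 CPM with neither exposure and 39.3, 13.1, 15.9 and 12.7 CPM with both (0.97 ± 0.67). Of 22 genes of oxidative defence, 11 were higher and 11 lower, and the median was 0.01 (-0.05 by mean log2 CPM). Hmox1, the inducible haem oxygenase, measured 9.43, 9.08, 9.59 and 9.01 CPM against 23.1, 31.1, 14.1 and 2.49 CPM, a difference of 0.93 ± 0.75 that was 1.54 in the first code and -0.15 in the second.

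Lists of cellular stress, growth and division were likewise mixed. Heat shock and co-chaperone genes numbered 16 higher and 10 lower of 26 with a median of 0.10, and Dnajc1 was their 1 member at an unadjusted p under 0.05. Genes of the integrated stress response and serine synthesis numbered 13 higher and 7 lower of 20 with a median of 0.05. Among them Psat1, an enzyme of serine synthesis, measured 61.3, 60.9, 31.3 and 26.3 CPM with neither exposure and 7.22, 6.23, 25.4 and 30.7 CPM with both. The 2 exposed libraries of the first code were far below all others, and the difference of -1.37 ± 0.61 was -3.19 in that code and -0.04 in the second.

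DNA damage genes and ribosome biogenesis genes held the largest numbers of listed members whose groups did not overlap. Both lists contain a gene that had been seen among the smallest p (Blm and Nop16), so their counts are no independent evidence. Of 23 DNA damage genes, 13 were fitted lower and 10 higher with a median of -0.04, and 4 had groups that did not overlap (beside 2.62% of all tested genes): Nbn, Mdm2 and Rmi1 lower and Brca2 higher. Nbn, part of the complex that senses double-strand breaks, measured 60.3, 12, 22.5 and 18.8 CPM against 11.6, 9, 11.9 and 10.5 CPM (-1.40 ± 0.64). Mdm2, the ubiquitin ligase of p53, measured 149.8, 143, 130.0 and 141 CPM against 103, 75, 118 and 99.4 CPM (-0.51 ± 0.26). Brca2, a factor of recombination repair, measured 39.7, 30.7, 49.5 and 50.4 CPM against 140.1, 60.4, 53.9 and 55.1 CPM (0.86 ± 0.36). Of 25 ribosome biogenesis genes, 16 were lower and 9 higher with a median of -0.26, and Nop16 and Rrp9 were lower and Pes1 higher without overlap. Pes1, of the PeBoW complex, measured 16.8, 16.3, 17.9 and 18.5 CPM against 55.8, 39.2, 29.4 and 18.9 CPM (1.04 ± 0.47).

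The other pathway lists had at most 1 member at an unadjusted p under 0.05. In the cell cycle list, 22 of 41 were fitted higher with a median of 0.08 and Ccnd2 was that member. In the list of fibroblast growth factor signalling, 10 of 21 were higher with a median of -0.07 and Etv5 was that member. Among 24 nuclear genes of oxidative phosphorylation, 13 were higher with a median of 0.01. Their member at an unadjusted p under 0.05, the ATP synthase gene Atp5c1, reached 638 CPM in the second exposed library but only 188 to 209 CPM in the other 3, against 176 to 227 CPM with neither, and its difference of 0.58 ± 0.28 became -0.05 without that library. Interneuron transcription factors (7 of 20 higher, median -0.05), GABA synthesis and transport (5 of 10, 0.04), neuropeptides and calcium-binding proteins (5 of 9, 0.05; -0.02 by mean log2 CPM), apoptosis (10 of 20, 0.02) and inflammation (9 of 11, 0.13) had 0 such members.

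Over all 33 lists together, 563 of 661 genes were tested and 282 of these (50.1%) were fitted higher. An unadjusted p under 0.05 was reached by 14 (2.49%, beside 1.49% of all tested genes), 4 higher and 10 lower, and 16 had groups that did not overlap (2.84%, beside 2.62%). Some of these genes were listed because earlier results of these data named them, so that nothing is read from the 2.49%.

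**Figure D5:**
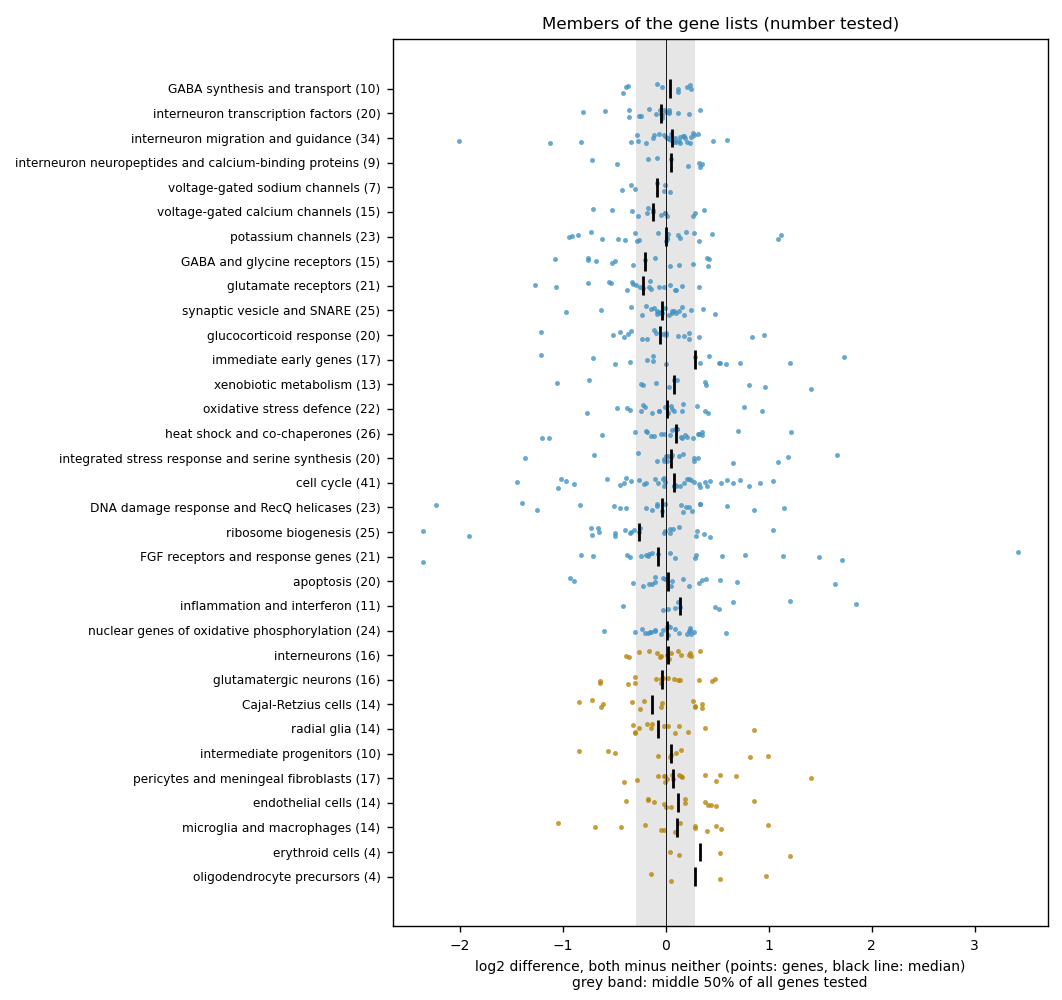
Fitted log2 differences (x axis) between both exposures and neither for the tested members of each gene list, 1 point per gene (pathways in blue, cell types in ochre), with the median of each list as a black line and the middle 50% of all tested genes as a grey band. The medians lie between -0.26 (ribosome biogenesis) and 0.33 (erythroid cells, 4 genes), and the median of all tested genes is 0.00.

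Listed markers of other cell types, taken as sums, were found in every library of both groups, though single members were at or near 0. Summed over 16 listed genes, interneuron markers came to between 2028 and 2378 CPM with both exposures and between 1791 and 2429 CPM with neither. Markers of glutamatergic neurons, the other main neurons of the cortical plate, came to 4859 to 6857 CPM against 5119 to 6039 CPM, and those of Cajal-Retzius cells, the reelin-secreting cells of the cortical surface, to 2555 to 3186 CPM against 2360 to 3167.5 CPM. Radial glia markers came to 1745 to 2145 CPM against 1724 to 1932 CPM, and intermediate progenitor markers to 234 to 309 CPM against 213 to 325 CPM. Ptprz1, Nes, Vim and Mki67 made up most of the radial glia sum, while Pax6 and Sox9 stayed at 18.7 CPM or less and Hes5 at 0.757 CPM or less. Elavl4 (118 to 214 CPM) was the largest part of the intermediate progenitor sum, with Eomes at 7.51 CPM or less. The ranges of the groups overlapped for each of these lists, whose medians were 0.02, -0.04, -0.13, -0.08 and 0.04 in that order. By mean log2 CPM the radial glia median was 0.06.

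Markers of blood vessels and blood also overlapped between the groups. Pericyte and meningeal markers came to 2242 to 3019 CPM with both exposures and 1515 to 3802 CPM with neither, endothelial markers to 530 to 585 CPM against 463 to 609 CPM, and microglia and macrophage markers to 165 to 224 CPM against 80.5 to 234 CPM. Oligodendrocyte precursor markers came to 75.7 to 85.2 CPM against 67.0 to 97.5 CPM, but most of this was Pdgfra (56.1 to 71.9 against 45.2 to 78.0 CPM). Olig1, Olig2 and Sox10 were each at 0 in most of the 8 libraries and never above 14.5 CPM. Erythroid markers came to 68.2 to 288 CPM against 36.0 to 235 CPM, all 4 tested members were fitted higher with a median of 0.33, and the haemoglobin genes Hba-a1, Hba-a2, Hbb-bs and Hbb-bt had 0 counts in all 8 libraries. How reads were counted is not stated, so these 0 counts cannot be read as absence of the RNA. The embryonic haemoglobin gene Hbb-y, which made up much of the sum in several libraries, measured 2.69, 5.88, 42.6 and 178 CPM with neither exposure and 10.7, 249, 188 and 81.5 CPM with both. Its groups overlapped, with a difference of 1.20 ± 1.19. Neurog1, of intermediate progenitors, and Nkx2-2, of oligodendrocyte precursors, were also at 0 in all 8. The part these cells have in any difference above was not tested.

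Both exposures were next set against each exposure alone, which asks what was added by the second one. These comparisons share the 4 libraries with both exposures with the one above. Against cypermethrin alone, edgeR called 0 genes (0%) and had 570 (4.31%) at an unadjusted p under 0.05, 201 higher (1.52%) and 369 lower (2.79%), while DESeq2 and limma voom called 0. Against stress alone it called 0 and had 713 (5.39%), 296 higher (2.24%) and 417 lower (3.15%). There limma voom called 0 and DESeq2 called 2, Dnajc1 and Tnfrsf22. The stress-alone group holds the library that goes against its recorded sex (vehicle stressed replicate 1). Without that library edgeR still called 0 genes in both comparisons. At an unadjusted p under 0.05 it then had 497 against stress alone and 820 against cypermethrin alone. Tnfrsf22, a decoy receptor that is named for this call after its values were seen, measured 6.93, 1.61, 7.29 and 4.49 CPM with both exposures and 65.6, 24.7, 89 and 8.96 CPM with stress alone (edgeR difference -3.20 ± 0.76, adjusted p = 0.902).

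Dnajc1 was lowest with both exposures among the 4 group means. It averaged 62.5 ± 12.7 CPM with both, 98.9 ± 36.4 with cypermethrin alone, 144 ± 33.8 with neither and 196 ± 100.2 with stress alone (SD, n = 4 each). Against stress alone its difference was -1.65 ± 0.36 (edgeR adjusted p = 0.902) and against cypermethrin alone -0.66 ± 0.35. Each pair of neighbours in this order had overlapping library values, and stress alone ran from 52.4 to 284 CPM.

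Other named genes ordered the group means differently. Ociad2 averaged 24.5 ± 3.88 CPM with both exposures, 27.7 ± 11.3 with cypermethrin alone, 16.4 ± 9.9 with stress alone and 6.74 ± 4.02 with neither, so that the unexposed group was the lowest. Etv5 averaged 9.47 ± 6.11 CPM with both, 11.2 ± 4.64 and 12.5 ± 9.64 with the single exposures and 48.9 ± 54.2 with neither. Blm averaged 15.1 ± 5.96 CPM with both, 29.8 ± 11.2 with cypermethrin alone, 30.1 ± 13.1 with stress alone and 71.3 ± 91.1 with neither. Cyb5r3 averaged 226 ± 49 CPM with both, 233 ± 146 and 224 ± 24.8 with the single exposures and 132 ± 18.2 with neither, and Ccnd2 averaged 4355 ± 411 CPM with both, 5197 ± 1325 with cypermethrin alone, 4092 ± 230.4 with stress alone and 3480.1 ± 348 with neither.

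Finally, the effect of both exposures was tested against the sum of the 2 single effects on the log2 scale (an interaction term over all 16 libraries). edgeR, DESeq2 and limma voom called 0 genes (0%), and edgeR had 622 (4.7%) at an unadjusted p under 0.05, 213 above the sum (1.61%) and 409 below it (3.09%). Cnih3 had the smallest p of the named genes in this test. It averaged 46.6 ± 6.63 CPM with both exposures, 79 ± 26.1 with neither, 119 ± 68.7 with cypermethrin alone and 129.6 ± 60.7 with stress alone, so that the group with both exposures was the lowest while the mean of each single exposure lay above that of neither. The departure from the sum was -2.07 ± 0.51 (edgeR unadjusted p = 0.000347, adjusted p = 0.985). Dnajc1 departed by -1.11 ± 0.49 and Cog4 by 2.28 ± 0.85 (both edgeR adjusted p = 0.985), and Cog4 stood at 308 CPM in replicate 1 with both exposures and at no more than 60.2 CPM in each of the other 15 libraries.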

How the data were processed

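RNA was measured in 16 libraries, 4 per group. The authors deposited read counts as whole numbers, 1 column per library (24539 gene symbols, 18733 with a count). Reads were aligned with STAR 2.5 to mm10, per the submitters' processing notes. How reads were counted, and whether strand was used, is not given in the sources used here. Genes were tested with edgeR 4.0.16 (R 4.3.3): filterByExpr by group with a count minimum of 10, TMM scaling, robust quasi-likelihood dispersions, and 1 mean per group over all 16 libraries (common dispersion 0.344), with Benjamini-Hochberg adjustment over all 13224 tested genes and calls at 0.05. CPM are over TMM-scaled library sizes. Standard errors and 95% intervals were derived from the F statistic. Intervals rest on the spread between embryos, 1 per litter. limma 3.58.1 and DESeq2 1.42.0, other scalings and filters, the library code, and leaving out each library were alternatives. The fit was tested on simulated counts with 100 genes changed 2-fold and 100 changed 4-fold. There edgeR called 6 of the former and 42 of the latter, with 3 calls among 12746 unchanged genes. The 0 calls between both exposures and neither therefore do not show that no gene changed by such amounts.

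Named genes are the 12 with the smallest unadjusted p, the 10 with the smallest p at a mean of at least 100 CPM, a set of 17, and the member of each of 33 lists with the smallest p (57 in all, since some genes that the rule names are not reported here); list members named because they passed an unadjusted p of 0.05 or had groups that did not overlap, and Hbb-y, were picked after their values were seen. The comparison and lists were chosen with earlier results of these data known. Replicates were numbered in accession order, and 23879 symbols matched GENCODE vM21, which uses the same build. 0 genes had no counts in one group and enough in the other to be named for it.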

Additional observations from a re-analysis of the deposited data

Results flagged for a closer look

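In 140 checks of a gene's CPM or a library summary within a group of 4, 16 had 1 library apart from the rest. Its gap to the nearest other exceeded Dixon's critical share of the group's range, which chance alone passes in about 1 of 20 groups of normally distributed values. CPM were checked unlogged, and many of the genes were picked for a small p in these data. The 16 are therefore not read against that rate. With both exposures there were 10, of which 4 were in replicate 1 and 4 in replicate 2.

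In replicate 1 with both exposures, Cog4 was at 308 CPM (23.4 to 60.2 in the other 3 libraries), Fermt3 at 56.6 CPM (0.748 to 3.92) and Tsc22d3 at 27.7 CPM (6.98 to 9.69), all high. The same library was low for Fkbp5, at 19.1 CPM against 36.4 to 38.1. In replicate 2 with both exposures, Gdpd3 was high at 89.5 CPM (3.99 to 10.4 in the others), Nos1 at 335 CPM (185 to 207) and Atp5c1 at 638 CPM (188 to 209), while Ociad2 was low at 18.7 CPM (26.1 to 26.7). Spata46 had its 1 count in replicate 3, at 0.221 CPM, and the summed Cajal-Retzius markers were highest in replicate 4, at 3186 CPM (2555 to 2633).

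With neither exposure, replicate 2 was high for Blm, at 208 CPM (20.8 to 31.6 in the others), and for Cxcr4, at 84.4 CPM (41.7 to 45.9). Replicate 1 was high for Nop16, at 31.3 CPM (12.6 to 13.9), and had the lowest total count, 3013350. Fermt3 stood at 1.51 CPM in replicate 3 (0 to 0.257), and the summed erythroid markers were at 235 CPM in replicate 4 (36.0 to 65.6).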

How the results depend on the processing

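Between both exposures and neither, 0 genes were called in 18 of 20 alternatives. Within each library code, with 2 libraries against 2, 1 gene was called: Tuba1c in the second code (2.19 ± 0.29, edgeR adjusted p = 0.0198; 0.69 ± 0.75 over both codes) and Tmem181c-ps in the first (-5.50 ± 0.72, adjusted p = 0.0357; -1.46 ± 0.84), both named after their values were seen; the cause was not tested. The 197 genes at an unadjusted p under 0.05 became 496 in the 8 libraries alone, 600 with limma voom and sample quality weights, 649 of 18733 with no filter (more genes tested), 631 within the second code, 582 within the first, 317 without the library labelled vehicle stressed replicate 1, and 110 to 289 leaving out each compared library. Chosen after seeing the data, the alternatives of the other contrasts changed 1 of 24 counts of called genes (2 genes called by DESeq2 against stress alone). Their counts at an unadjusted p under 0.05 moved more. Other scalings gave 342 and 337 genes with groups that did not overlap. By differences of mean log2 CPM, 33 of 33 list medians moved by less than the SD of the list's mean between libraries. That margin is wide and says little about stability. It took in the immediate early genes (0.28 to 0.01) and the radial glia markers, whose sign changed (-0.08 to 0.06). No paired analysis was possible because replicate numbers follow accession order and the labels pair no embryos across groups.

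Of 1130 values of named genes under alternatives, 41 had the opposite sign. With limma voom this was Cxcr4 (-0.052), and with quality weights Scn2a (0.047), Hmox1 (-0.25), Sp9 (0.19) and Irf7 (-0.48). Within the second code these were Scn3a (0.068), Scn2a (0.087), Hmox1 (-0.15), Sp9 (0.31), Cacna2d3 (0.12), Prdx2 (-0.041) and Atp5c1 (-0.037), and within the first Lhx6 (-0.030), Erbb4 (-0.18), Cxcr4 (-0.53), Dcx (-0.027), Fkbp5 (0.023) and Nr3c1 (0.26). Leaving out each compared library gave ranges that crossed 0 for Lhx6 (-0.11 to 0.16), Erbb4 (-0.083 to 0.12), Cxcr4 (-0.22 to 0.34), Dcx (-0.026 to 0.071), Scn2a (-0.11 to 0.15), Fkbp5 (-0.33 to 0.087), Dlx1 (-0.32 to 0.10), Sp9 (-1.10 to 0.046) and Atp5c1 (-0.049 to 0.76). The cause was not tested. Levels limit all of these: genes under 9.66 CPM had a median standard error of 1.16.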
